A study of Trichoderma harzianum with 18 samples.

Results

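The response of wild-type *T. harzianum* CBS 226.95 to the removal of its carbon source was examined in 6 of the 18 RNA-Seq libraries of the series, chosen by their labels: 3 cultures kept without a carbon source and 3 cultures on 25 mM D-fructose. *T. harzianum* is a filamentous soil fungus used in biocontrol and a producer of enzymes that break down plant biomass. Both groups came from 36 h pre-cultures on D-fructose and were sampled 18 h after the mycelium was moved to the new flasks of minimal medium. All 14650 genes of the count table were considered. The same pair of conditions in the Δ*xyr1-2* mutant, a single deletion strain lacking the cellulase and xylanase activator XYR1, was used as a second set of 6 libraries, and the wild type on 1% cellulose was used only to give levels. The mutant libraries held between 0 and 7 reads on *xyr1*, against between 1272 and 3676 reads in the 6 wild-type libraries. Replicates were separate flasks, and the study's methods describe separate plates of spores for each set. Mycelium is a bulk sample, so less RNA per cell and fewer cells of one kind cannot be told apart.

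A fungus on D-fructose phosphorylates the sugar, splits it by glycolysis and either oxidizes the pyruvate in the mitochondria or, when sugar is plentiful, converts part of it to ethanol. When sugar runs out, filamentous fungi generally release carbon catabolite repression, the control by which the zinc finger protein CRE1 holds back genes for other carbon sources, and they recycle their own protein and wall material while surface proteins such as hydrophobins coat aerial hyphae and spores. Gluconeogenesis and the glyoxylate cycle are the routes by which acetate and fatty acids can be turned into sugar.

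The depth was similar between the groups, with 16495622 to 21263103 reads counted on genes in the cultures without carbon and 17399036 to 18036876 in the D-fructose cultures. The 100 genes with the most reads took 24.3% to 25.1% of the reads without carbon and 30.2% to 35.8% on D-fructose. The cultures without carbon resembled each other closely (Pearson's r of log CPM across genes of 0.991 for each pair), whereas the D-fructose replicate 3 stood apart from the other D-fructose cultures (r of 0.946 and 0.958, against 0.982 between replicates 1 and 2). Where leaving it out changed the call of a gene described below, the value without it is given. That value is also given for most called genes whose fold change it moved by over 1.5 times.

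Carbon removal changed the transcripts of a large part of the genome in both directions. Of the 11453 genes with enough reads to be tested, 3423 (29.9%) were differentially expressed (DE), that is with a change over 2-fold, an adjusted p under 0.05 by the quasi-likelihood test of edgeR and a mean FPKM (reads scaled for gene length and library size) over 1 in one group. There were 1648 genes with higher expression (14.4% of those tested) and 1775 with lower expression (15.5%) without carbon. The median log2 fold change was 1.75 among the higher genes and -1.84 among the lower genes. Changes over 16-fold were found for 196 higher and 209 lower genes, and changes over 100-fold for 59 higher and 66 lower genes. In counts scaled to library size (CPM), the replicates did not overlap between the groups for 1648 of the 1648 higher and 1596 of the 1775 lower genes, against 65.9% of all genes tested. The calls used another scaling, described below, which lowers all fold changes relative to CPM. Higher genes therefore separate more easily in CPM than lower genes, and these counts do not compare the 2 directions. A mean FPKM under 1 on D-fructose was found for 475 of the higher genes, and a mean FPKM under 1 without carbon for 365 of the lower genes. Without D-fructose replicate 3 the count of DE genes was 3991, with 1977 higher and 2014 lower.

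**Figure D1:**
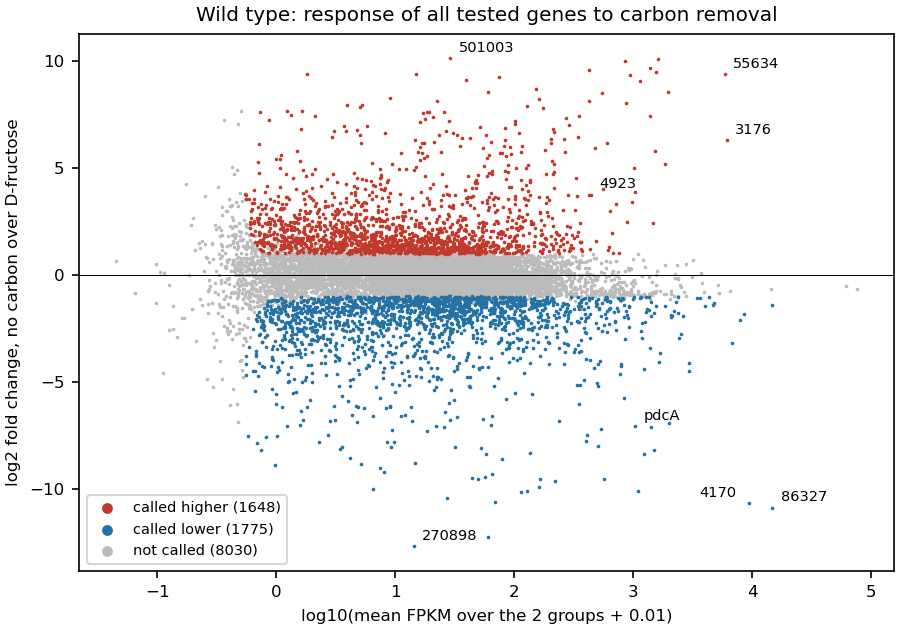
Fitted log2 fold change (no carbon over D-fructose) of the 11453 tested genes against the log10 of their mean FPKM, with called genes in red (1648 higher) and blue (1775 lower). Changes reach from -12.70 (Triha1_270898) to 10.14 (Triha1_501003).

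The direction of small changes depended on the scaling of the libraries. TMM scaling, which assumes that most genes do not change, set the median log2 fold change of all tested genes at 0.04. On that scale 5401 of the 11453 tested genes had an adjusted p under 0.05 by edgeR, at any fold change. Whether the assumption held was not tested. Scaling by library size alone placed it at 0.42, and the DE genes then split into 2795 higher and 1254 lower. The FPKM values follow library size, so a gene with a moderately higher FPKM without carbon can have a fitted change near 0. All fold changes below are on the TMM scale, and a list is described by its count of DE genes and its median beside the 0.04 of all genes.

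Genes of lower glycolysis and of ethanol formation had lower expression without carbon. In the list of glycolysis and gluconeogenesis genes, 8 of the 29 tested members had lower and 0 had higher expression without carbon, where 15.5% of all tested genes were lower. The list median was -0.69 on the log2 scale under TMM and -0.31 with library size only, and without D-fructose replicate 3 there were 11 lower genes. The reads on the 30 listed genes made up 1.18% ± 0.168 of all reads without carbon and 2.31% ± 0.298 on D-fructose (SD, n = 3 each). This sum is weighted to abundant genes, above all the ethanol genes *pdcA* and *adhA* described next. On D-fructose *pdcA* had 101240, 55707 and 79837 reads and *adhA* had 107560, 51554 and 79062. Without carbon they had 816, 753 and 984 and 7415, 4954 and 41303 reads. The sum therefore does not describe the pathway as a whole.

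Pyruvate decarboxylase, the enzyme that commits pyruvate to ethanol, changed the most. Its gene *pdcA* (Triha1_126634) had 18.6, 21.0 and 21.3 FPKM without carbon, against 2646, 1421 and 2111 FPKM on D-fructose. The groups were far apart, with a log2 fold change of -7.06 ± 0.38 (SE; edgeR adjusted p = 2.12e-05). In the wild type on cellulose the gene averaged 3085 ± 496 FPKM (SD, n = 3), so in this strain its low level was seen without carbon and not on the polymer. The second pyruvate decarboxylase gene, *pdcB*, was near 0 in both groups, at 0.530, 0.295 and 0.206 FPKM without carbon and 0.193, 0.350 and 1.15 FPKM on D-fructose, with no DE call.

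Alcohol dehydrogenase *adhA* (Triha1_77454), which reduces the acetaldehyde made by pyruvate decarboxylase, had 346, 283 and 1829 FPKM without carbon and 5755, 2691 and 4279 FPKM on D-fructose. The groups did not overlap, but replicate 3 without carbon was several times above the other replicates of its group. The log2 fold change was -2.77 ± 0.77 (edgeR adjusted p = 0.0219). Leaving out that library gave the lowest of the leave-one-out values, -4.15, and the call was lost when replicate 1 or 2 without carbon or D-fructose replicate 1 was left out (adjusted p of 0.0703, 0.0618 and 0.0566).

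The enzymes from glyceraldehyde 3-phosphate to phosphoenolpyruvate fell together. Phosphoglycerate kinase *pgkA* had 212, 202 and 202 FPKM without carbon, against 1042, 911 and 1052 FPKM on D-fructose (log2 -2.67 ± 0.20, edgeR adjusted p = 8.15e-05). Phosphoglycerate mutase *pgmA* had 47.8, 43.6 and 53.8 FPKM without carbon and 235, 204 and 204 FPKM on D-fructose (log2 -2.53 ± 0.18). Every culture without carbon lay below every D-fructose culture for both genes.

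Enolase (*enoA*) had 480, 435 and 407 FPKM without carbon and 1643, 1399 and 1029 FPKM on D-fructose (log2 -2.01 ± 0.25). Glyceraldehyde 3-phosphate dehydrogenase (*gpdA*), often used as a constant reference gene, had 1004, 970 and 989 FPKM without carbon and 1813, 1842 and 1767 FPKM on D-fructose. Its log2 fold change was -1.25 ± 0.18, and -0.87 without a DE call when scaled by library size only. The minor triosephosphate isomerase gene *tpiB* (log2 -2.28 ± 0.32) and phosphoglucomutase *pgmB* (log2 -1.39 ± 0.19), which links glucose phosphates to glycogen and wall sugars, were the other members with lower expression.

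The entry and the exit of the pathway were not called. Hexokinase *hxkA*, which phosphorylates D-fructose, had 217, 201 and 206 FPKM without carbon, against 101, 132 and 150 FPKM on D-fructose. All replicates without carbon were above the D-fructose replicates, but on the TMM scale the log2 fold change was 0.33 ± 0.18 (edgeR adjusted p = 0.166). Glucokinase *glkA* (log2 -0.41 ± 0.15), phosphofructokinase *pfkA* (-0.88 ± 0.15), aldolase *fbaA* (-0.69 ± 0.17) and pyruvate kinase *pkiA* (-0.37 ± 0.31) stayed within 2-fold, although the adjusted p of *pfkA* (0.00246) and *fbaA* (0.0138) passed the threshold. The regulatory gene *fbpz* for the fructose 2,6-bisphosphate enzyme was at -0.35 ± 0.16.

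**Figure D2:**
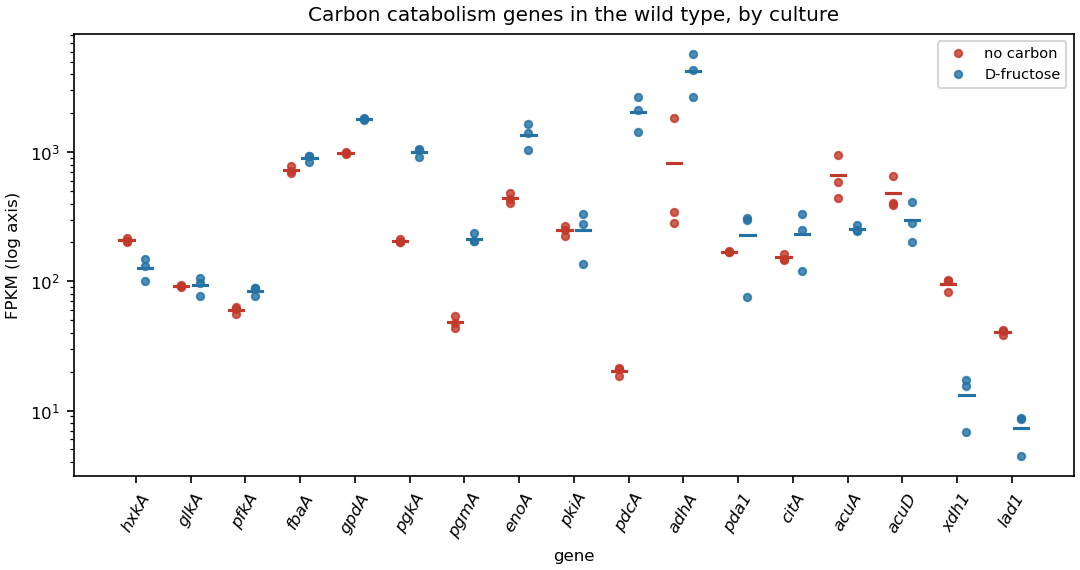
FPKM on a log axis of 17 carbon catabolism genes in each wild-type culture, without carbon (red, left) and on D-fructose (blue, right), with a bar at the mean of 3. The *pdcA* cultures lie at 18.6 to 21.3 without carbon and at 1421 to 2646 on D-fructose, while *hxkA*, *xdh1* and *lad1* have their higher values without carbon.

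The genes named here for gluconeogenesis, which need not be specific to it, were not called in either direction. Phosphoenolpyruvate carboxykinase (Triha1_83850) had 555, 548 and 608 FPKM without carbon and 836, 580 and 894 FPKM on D-fructose, with overlapping groups and a log2 fold change of -0.82 ± 0.24. Fructose bisphosphatase (Triha1_492706) was at -0.21 ± 0.23 and pyruvate carboxylase *pyc* at 0.15 ± 0.19. Without D-fructose replicate 2, the carboxykinase was called lower (log2 -1.09).

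Acetate use and the glyoxylate cycle had higher FPKM without carbon but were not called on the TMM scale. Acetyl-CoA synthetase *acuA*, which activates acetate, had 589, 444 and 950 FPKM without carbon, against 275, 245 and 247 FPKM on D-fructose. The groups did not overlap, and the log2 fold change of 0.98 ± 0.30 (edgeR adjusted p = 0.0297) was just under the 2-fold limit. Methylcitrate synthase *mcsA*, which takes propionyl-CoA into central metabolism, had 149, 162 and 144 FPKM without carbon and 53.9, 73.9 and 76.8 FPKM on D-fructose (log2 0.78 ± 0.17).

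Malate synthase (Triha1_507821) had 176, 174 and 244 FPKM without carbon and 56.3, 83.0 and 138 FPKM on D-fructose (log2 0.71 ± 0.33). Isocitrate lyase *acuD* had 405, 392.1 and 651 FPKM without carbon and 282, 201 and 409 FPKM on D-fructose, with overlapping groups (log2 0.31 ± 0.33). With library size only, *acuA* (1.37), *mcsA* (1.15) and malate synthase (1.09) were called higher and *acuD* (0.70) was not. Malate synthase was also called without D-fructose replicate 3 (1.13), and *acuA* without replicate 2 of the cultures without carbon (1.21).

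Of the 21 genes listed for the tricarboxylic acid and glyoxylate cycles, 1 was called, a smaller share than the 29.9% of all tested genes. The list is not limited to mitochondrial enzymes and holds the ATP citrate lyase genes. DESeq2 and RLE size factors each called 4 lower, and the replicate block called 0. The median of this list was -0.35 under TMM and 0.03 with library size only, so it had no direction that held under both. The called member, NAD-dependent isocitrate dehydrogenase (Triha1_71098), had 146, 156 and 176 FPKM without carbon and 344, 297 and 122.6 FPKM on D-fructose, where replicate 3 was below all cultures without carbon. Its log2 fold change was -1.06 ± 0.36 (edgeR adjusted p = 0.0442), and it kept its call only when D-fructose replicate 3 was the library left out. It was not called with library size only (-0.67) or with the replicate block (-0.94).

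The same library was low for other genes of the cycle and its entry. The pyruvate dehydrogenase subunit gene *pda1*, which feeds the cycle, had 172, 167 and 170 FPKM without carbon and 297, 307 and 76.3 FPKM on D-fructose, and citrate synthase *citA* had 150, 147 and 164 FPKM without carbon and 329, 248 and 119 FPKM on D-fructose. Neither was called (log2 -0.80 ± 0.46 and -0.98 ± 0.35), but both were without D-fructose replicate 3 (-1.22 and -1.31). In that library 15 of the 21 cycle genes had their lowest D-fructose value, against 41.2% of all tested genes, and 6 of the 21 were below 0.5 times the lower of the other replicates, against 7.95% of all tested genes. Without it, 3 cycle genes were called lower and 1 higher. Isocitrate lyase and malate synthase, by contrast, had their highest D-fructose values in that library, and the ATP citrate lyase genes their lowest. The ATP citrate lyase genes *Acly-1* and *Acly-2*, which supply cytosolic acetyl-CoA, were at -0.20 ± 0.43 and -0.30 ± 0.37.

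The few annotated genes of ribosomes and translation moved in the same library. Of 13 tested members 0 were higher and 2 were lower without carbon, where 14.4% of all tested genes were higher and 15.5% lower. The share of lower genes was thus near that of all tested genes. The list median was -0.73, and -0.34 with library size only. Of the 13 members, 12 had their lowest D-fructose value in replicate 3. Without that replicate 7 were called lower and the median was -1.13. The largest fall of the list belonged to Triha1_112882, whose annotation (EC 1.2.1.31) is that of the aminoadipate reductase of lysine synthesis and not of a ribosomal protein. It had 2.25, 1.91 and 2.23 FPKM without carbon and 13.2, 14.5 and 41.2 FPKM on D-fructose (log2 -3.81 ± 0.49, and -3.08 without D-fructose replicate 3). The ribosomal protein gene Triha1_502519 had 382, 498 and 489 FPKM without carbon, against 827, 971 and 347 FPKM on D-fructose (log2 -1.02 ± 0.36, edgeR adjusted p = 0.0488), and kept its call in 1 of the 6 fits with a library left out, that without D-fructose replicate 3, and not with library size only (-0.65) or with the replicate block (-0.92).

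In the pentose phosphate pathway, which makes NADPH and ribose, 1 of 10 tested genes was called, where 29.9% of all tested genes were. This was *rpiB* (Triha1_498824), annotated as a ribose 5-phosphate isomerase, with 1.82, 0.656 and 1.32 FPKM without carbon and 51.3, 82.4 and 190 FPKM on D-fructose (log2 -6.75 ± 0.65, edgeR adjusted p = 0.000237), and was at -6.04 without D-fructose replicate 3. It had no read in the cellulose cultures of the wild type, so among the 3 wild-type conditions it was high on D-fructose alone. The oxidative genes *gsdA* (log2 -0.47 ± 0.16) and *gndA* (0.01 ± 0.19) and transaldolase *talA* (-0.65 ± 0.18) stayed within 2-fold.

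Of the 31 tested genes of the other sugar pathways 3 were higher and 2 were lower, in both directions a smaller share than over all tested genes (14.4% higher, 15.5% lower). The median was -0.25 under TMM and 0.12 with library size only, and without D-fructose replicate 3 there were 5 higher and 2 lower genes. Xylitol dehydrogenase *xdh1* had 103, 100 and 82.5 FPKM without carbon and 6.79, 15.6 and 17.4 FPKM on D-fructose (log2 2.48 ± 0.33, edgeR adjusted p = 0.000932). L-Arabitol dehydrogenase *lad1* had 41.3, 42.3 and 38.7 FPKM without carbon, against 4.46, 8.75 and 8.62 FPKM on D-fructose (log2 2.11 ± 0.26). Both genes were several-fold higher in every culture without carbon, although no pentose was added.

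The gene *lga1* of the D-galacturonate pathway, for a sugar of pectin, also rose (54.7, 61.1 and 47.5 FPKM without carbon, 8.40, 15.2 and 19.3 FPKM on D-fructose; log2 1.55 ± 0.29). The aldo-keto reductase gene *ara1*, annotated to the same pathway, fell, at 8.77, 9.51 and 10.9 FPKM without carbon and 34.1, 24.6 and 35.6 FPKM on D-fructose (log2 -2.08 ± 0.22). The rhamnose pathway gene *lra3* fell as well (log2 -1.19 ± 0.20), but was not called with library size only (-0.81). The D-xylose reductase gene *xyl1* (0.45 ± 0.18) and the reductase gene *lxr3* (-0.64 ± 0.32) were not called.

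Of the main regulators, *cre1* fell and *xyr1* was not called. The repressor gene *cre1* (Triha1_502975) had 138, 154 and 148 FPKM without carbon, against 397, 494 and 369 FPKM on D-fructose. The groups were separate, with a log2 fold change of -1.89 ± 0.18 (edgeR adjusted p = 0.000215) that was between -1.98 and -1.85 whichever library was left out. The activator gene *xyr1* (Triha1_1126) had 64.8, 59.6 and 61.4 FPKM without carbon and 25.7, 35.5 and 40.0 FPKM on D-fructose. It was higher in 3 of 3 cultures without carbon, but on the TMM scale the log2 fold change was 0.50 ± 0.18 (edgeR adjusted p = 0.0534).

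Sugar transporters were the list with the most tested genes and also with the most genes of higher expression. By share of the genes with enough reads they did not lead, since 9 of the 27 tested plant biomass-degrading CAZymes were higher. That order depended on the filter on low counts. Without the filter 9 of 54 tested CAZymes were higher, against 23 of 89 tested sugar transporters. These membrane proteins of the sugar transporter family (PF00083) take up sugars, and some act as phosphate permeases. Of 90 members 76 were tested, of which 23 were higher and 11 were lower without carbon, where 14.4% of all tested genes were higher and 15.5% lower. The list median was 0.49 under TMM and 0.86 with library size only, and was 0.25 without D-fructose replicate 1 and 0.74 without D-fructose replicate 3, where 27 were higher and 10 lower. Their summed reads made up 1.02% ± 0.0784 of all reads without carbon and 0.380% ± 0.0703 on D-fructose (SD, n = 3 each).

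The transporter Triha1_488937 rose the most, with 138, 92.8 and 97.3 FPKM without carbon and 1.50, 1.92 and 3.98 FPKM on D-fructose (log2 5.09 ± 0.41, edgeR adjusted p = 0.000113). Triha1_478307 had 52.6, 17.1 and 18.1 FPKM without carbon and 0.0696, 0.0679 and 1.90 FPKM on D-fructose (log2 5.04 ± 1.09). Of its reads on D-fructose, 54 were in replicate 3 and 2 in each of the others. Leaving out replicate 3 gave 8.29, and leaving out D-fructose replicate 1 or 2 or replicate 1 without carbon gave values between 4.30 and 4.45. Triha1_17916 had 22.9, 12.8 and 10.2 FPKM without carbon and 0.301, 0.481 and 1.47 FPKM on D-fructose (log2 3.97 ± 0.60, and 4.90 without D-fructose replicate 3). In all 3 genes the D-fructose value was highest in replicate 3, and the groups did not overlap.

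By level, Triha1_93498 and Triha1_4923 were the most abundant called transporters without carbon. Triha1_4923 had 914, 735 and 871 FPKM without carbon and 63.1, 47.7 and 31.6 FPKM on D-fructose (log2 3.76 ± 0.31). It averaged 60.5 ± 26.5 FPKM on cellulose (SD, n = 3). Triha1_93498 had 974, 945 and 1012 FPKM without carbon, against 427, 396 and 296 FPKM on D-fructose, but at log2 1.01 ± 0.21 it was barely past the limit and was not called without D-fructose replicate 2 (0.96), D-fructose replicate 3 (0.86) or replicate 3 of the cultures without carbon (0.98).

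Among the falling members, Triha1_79806 had 2.65, 3.73 and 2.92 FPKM without carbon and 71.3, 9.04 and 16.5 FPKM on D-fructose (log2 -3.80 ± 0.80, and -2.48 without D-fructose replicate 1). Its D-fructose replicates were widely spread, and on cellulose it averaged 1139 ± 652 FPKM (SD, n = 3). Triha1_523667 was low throughout, at 0.161, 0.0395 and 0.122 FPKM without carbon and 1.18, 1.73 and 0.786 FPKM on D-fructose (log2 -3.79 ± 0.51), and was not called without D-fructose replicate 2, when its mean FPKM was under 1 in both groups. Triha1_104001, annotated with the inorganic phosphate transporter group (KOG0252) and not with sugar uptake, had 1.37, 1.23 and 1.18 FPKM without carbon, against 10.4, 6.42 and 17.5 FPKM on D-fructose (log2 -3.57 ± 0.41). Of the other called members of that group, Triha1_491362 fell (-1.16 ± 0.32) and Triha1_85982 rose (1.80 ± 0.42), and Triha1_491362 kept its call only without D-fructose replicate 3.

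**Figure D3:**
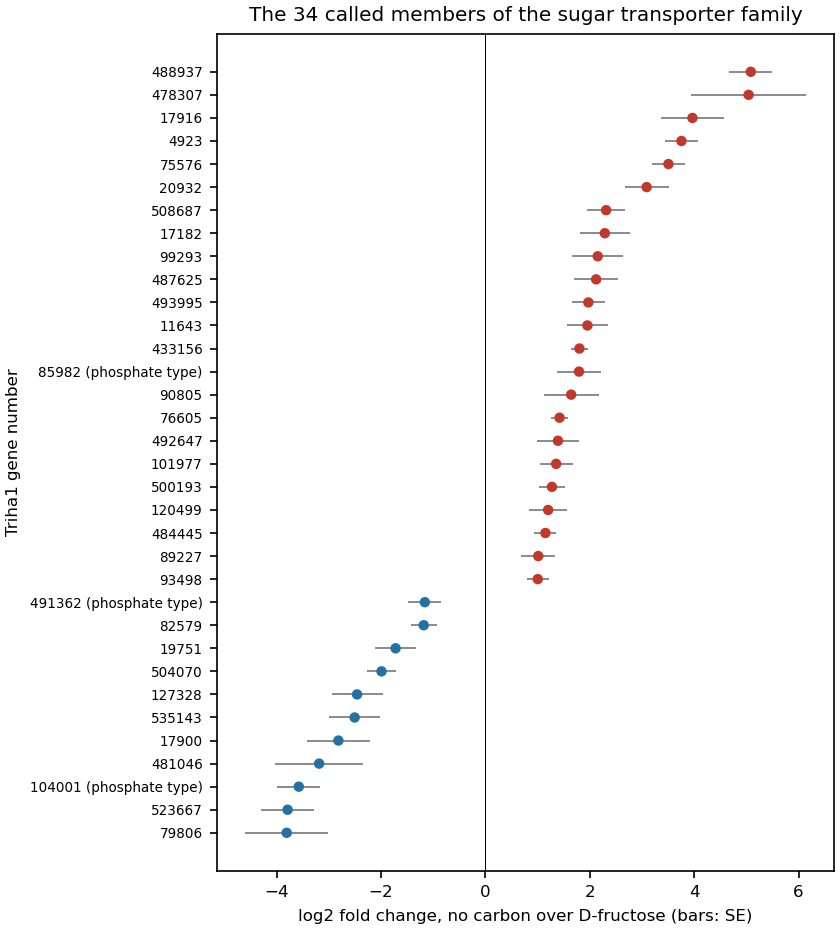
Fitted log2 fold change (no carbon over D-fructose) with its standard error for the 34 called members of the sugar transporter family, 23 higher (red) and 11 lower (blue). The values run from -3.80 (Triha1_79806) to 5.09 (Triha1_488937), and 3 members are marked as phosphate transporters by annotation.

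Among 7 transporters of the major facilitator family outside the sugar group, 6 were tested, 2 were higher and 3 were lower, where 14.4% and 15.5% of all tested genes were. Without any one of the cultures without carbon there were 1 higher and 2 lower, since Triha1_86990 (log2 1.03) and Triha1_179135 (log2 -1.14) lost their calls. Triha1_86990 was also not called by DESeq2, with RLE size factors or without D-fructose replicate 3 (0.72), nor Triha1_179135 with library size only (-0.74) or without D-fructose replicate 1 (-0.71). Triha1_1677 had 15.4, 17.02 and 19.0 FPKM without carbon and 3.54, 3.76 and 1.76 FPKM on D-fructose (log2 2.12 ± 0.29). Triha1_480669 had 1.27, 1.55 and 1.18 FPKM without carbon and 7.11, 8.74 and 3.24 FPKM on D-fructose (log2 -2.63 ± 0.38).

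Plant biomass-degrading (PBD) CAZymes are the secreted enzymes that split cellulose, hemicellulose, pectin and starch. The 58 annotated here, only a part of those the paper counts in the genome, were mostly at low levels in both groups. Of the 58 PBD CAZymes annotated here 27 had enough reads to be tested, of which 9 were higher and 5 were lower without carbon (14.4% and 15.5% of all tested genes). The median was 0.51, and 0.89 with library size only, and without D-fructose replicate 3 there were 12 higher and 6 lower of 33 tested. Without the filter on low counts 9 were higher and 5 lower of 54 tested, with a median of 0.36. Over all genes 1664 were then higher and 1797 lower of 13911 tested. The glucoamylase gene Triha1_81392 (GH15), which releases glucose from starch and glycogen, was the only one of the 9 above 100 FPKM, with 361, 382 and 353 FPKM without carbon and 32.8, 36.9 and 103 FPKM on D-fructose (log2 2.28 ± 0.45, edgeR adjusted p = 0.00544). Its D-fructose value was highest in replicate 3, so its fold change depends on that library.

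The largest rise in this list was that of Triha1_119344 (GH5_15), with 26.8, 15.3 and 20.3 FPKM without carbon, against 1.08, 1.63 and 0.725 FPKM on D-fructose (log2 3.805 ± 0.35). It is listed as an endoglucanase, but its enzyme number (EC 3.2.1.58) is that of an exo-acting glucanase for beta-1,3-linked glucan, a polymer of fungal walls. The GH11 endoxylanase genes Triha1_525076 and Triha1_118868 rose (3.42 ± 0.84 and 2.64 ± 0.56) but stayed under 4 FPKM in each culture of both groups, and Triha1_525076 was not called without D-fructose replicate 2 (2.75, adjusted p = 0.0506). All 5 of its reads on D-fructose were in replicate 3, without which its fitted value, then set by the prior count of the model, was 7.58. Without D-fructose replicate 1 it was 2.83. The lytic polysaccharide monooxygenase gene Triha1_99387 (AA9), an oxidative cellulose-cleaving enzyme, had 1.75, 1.33 and 2.43 FPKM without carbon and 0.217, 0.424 and 0.549 FPKM on D-fructose, where cellulose cultures averaged 1198 ± 646 FPKM (SD, n = 3).

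The lower PBD CAZymes were led by esterases. Triha1_109468 (CE5, cutinase or acetylxylan esterase) had 22.2, 25.0 and 22.9 FPKM without carbon and 68.7, 95.1 and 407 FPKM on D-fructose (log2 -3.41 ± 0.68), its highest value in D-fructose replicate 3. Without that library the log2 fold change was the smallest in size of the leave-one-out fits, -2.18. Triha1_157348 (CE3) had 7.72, 8.59 and 9.92 FPKM without carbon and 33.5, 33.0 and 38.3 FPKM on D-fructose (log2 -2.38 ± 0.16), and the endoglucanase-annotated Triha1_6750 (GH5_5) had 60.9, 61.2 and 61.7 FPKM without carbon and 246, 138 and 173 FPKM on D-fructose (log2 -1.996 ± 0.25).

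Proteases showed opposite extremes. Of 10 tested members of the proteolysis list 2 were higher and 2 were lower, shares near those of all tested genes (14.4% and 15.5%). The aminopeptidase gene Triha1_501003 (MEROPS family M28, EC 3.4.11.10) had 61.8, 51.7 and 59.5 FPKM without carbon, against 0, 0.0499 and 0.0518 FPKM on D-fructose. With 3736 reads without carbon and 2 reads on D-fructose over the 3 libraries of each group, the ratio of CPM was 1710 (95% exact interval 473 to 14122, counting error only). The fitted log2 fold change was 10.14 ± 0.37, the largest rise of all tested genes with replicates that did not overlap. Fitted values of genes this low in one group depend on the prior count of the model.

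Triha1_502174, annotated as a metallopeptidase, had 358 reads without carbon and 2 reads on D-fructose, a ratio of 164 (95% exact interval 45.0 to 1358). Its fitted log2 fold change of 6.73 was 9.69 without D-fructose replicate 3, which held both of those reads, and 6.10 without D-fructose replicate 2. The glutamic peptidase gene Triha1_98848 (MEROPS family G01) had 1 read without carbon and 596 reads on D-fructose, 651 times more on D-fructose (95% exact interval 116 to 25764), and averaged 0.220 ± 0.207 FPKM on cellulose (SD, n = 3). Its fitted log2 fold change was -9.20, -10.82 without replicate 3 of the cultures without carbon and -8.55 without D-fructose replicate 3. The dipeptidyl peptidase gene Triha1_4360 fell by 1.14 ± 0.26 on the log2 scale, with FPKM that overlapped between the groups, and was not called with library size only (-0.77).

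Of 26 DNA-binding regulators annotated here 4 were higher, about the share over all tested genes (14.4%), and 2 were lower, a smaller share than over all tested genes (15.5%). The zinc finger gene Triha1_483876 had 84.7, 67.4 and 78.0 FPKM without carbon and 19.1, 26.3 and 29.1 FPKM on D-fructose (log2 1.25 ± 0.19), and the zinc cluster gene Triha1_496021 (1.491 ± 0.20), Triha1_469719 with a fungal transcription factor domain (1.09 ± 0.26) and Triha1_476828 (1.05) rose too, although Triha1_469719 was not called without D-fructose replicate 3 (0.83), nor Triha1_476828 without D-fructose replicate 1 (0.84). The zinc cluster gene Triha1_479513 had 0.179, 0.125 and 0.218 FPKM without carbon, against 6.13, 2.52 and 11.95 FPKM on D-fructose (log2 -5.65 ± 0.69, and -4.99 without D-fructose replicate 3). Triha1_144107 fell as well (-1.17 ± 0.31), and was not called without D-fructose replicate 3 (-0.98) or without replicate 1 or 2 of the cultures without carbon (-1.22 and -0.98), nor with library size only (-0.78).

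The remaining short lists held few calls, where 14.4% of all tested genes were higher and 15.5% lower. With 10 or fewer tested genes each, their counts say little about a list as a whole. Of 6 acetyltransferases of the GNAT family 1 was higher (Triha1_276757, log2 1.75 ± 0.23) and 3 were lower, led by Triha1_482749 (-2.37 ± 0.55) and Triha1_144632 (-2.25 ± 0.19), with Triha1_98967 (-1.79 ± 0.47) losing its call without D-fructose replicate 2 or replicate 1 or 3 of the cultures without carbon (adjusted p of 0.0589, 0.0689 and 0.0526). Of 10 tested short-chain dehydrogenases 2 were lower, with Triha1_111413 at 0.0942, 0.288 and 0.179 FPKM without carbon and 21.5, 5.74 and 4.86 FPKM on D-fructose (log2 -6.23 ± 0.85, and -5.21 without D-fructose replicate 1) and Triha1_509379 at -1.45 ± 0.23. A single member rose among 5 protein kinases (Triha1_489733, 1.42 ± 0.22), among 7 WD-repeat proteins (Triha1_493587, 1.06 ± 0.15) and among 10 RNA processing proteins and helicases (Triha1_75919, 1.19 ± 0.35), of which Triha1_493587 was not called without D-fructose replicate 1 (0.97), by DESeq2 (0.997) or with RLE size factors (0.995), and Triha1_75919 not without D-fructose replicate 3 (0.85) or any one of the cultures without carbon (adjusted p of 0.0629, 0.0812 and 0.065). None of 5 protein folding genes was called.

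**Figure D4:**
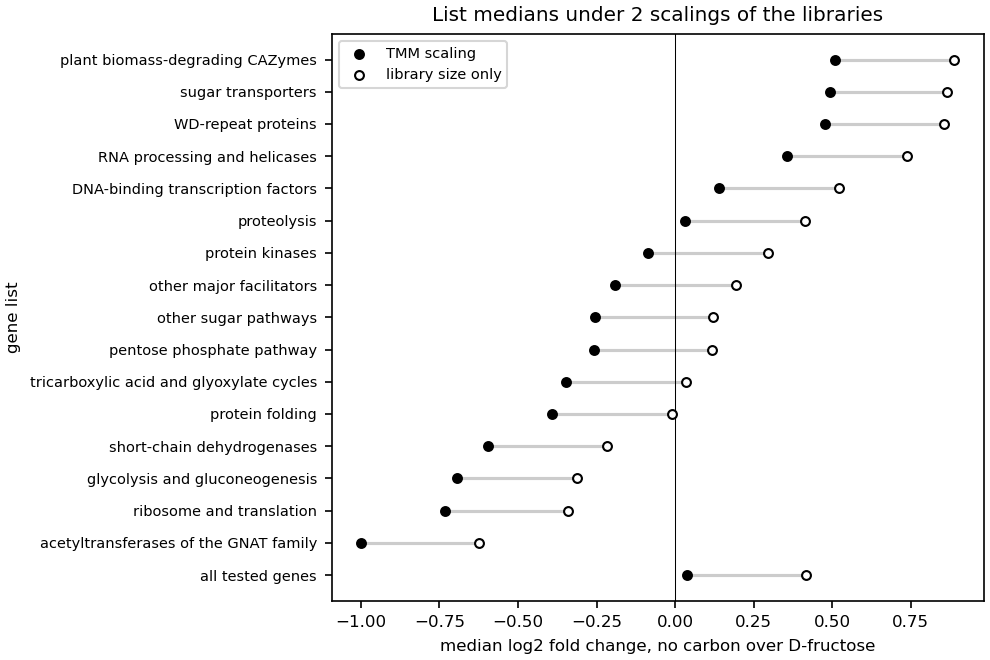
Median log2 fold change (no carbon over D-fructose) of 16 gene lists and of all tested genes, scaled by TMM (filled) and by library size only (open). All medians shift to the right without TMM, and those of the tricarboxylic acid cycle (-0.35 and 0.03), the pentose phosphate pathway (-0.26 and 0.12), other sugar pathways (-0.25 and 0.12), other major facilitators (-0.19 and 0.19) and protein kinases (-0.09 and 0.29) change sign.

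By FPKM, the most abundant changed transcript without carbon was that of Triha1_3176, a gene with a fungal hydrophobin domain. It had 15118, 11046 and 10064 FPKM without carbon and 102, 98.3 and 153 FPKM on D-fructose. The log2 fold change was 6.29 ± 0.35 (edgeR adjusted p = 2.40e-05), and cellulose cultures averaged 1401 ± 574 FPKM (SD, n = 3). Hydrophobins are small secreted proteins that make hyphae and conidia water-repellent. Whether the cultures held conidia was not tested.

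Most other genes with the largest changes carried no annotation in the sources used here. Triha1_55634 had 14177, 9915 and 10885 FPKM without carbon, against 11.5, 14.8 and 13.6 FPKM on D-fructose (log2 9.40 ± 0.31), and Triha1_374170 had 4356, 4074 and 3370 FPKM without carbon and 7.34, 9.41 and 7.31 FPKM on D-fructose (log2 8.56 ± 0.30). Among the 5 largest rises, after the aminopeptidase, were Triha1_486558 with 3998, 3215 and 2505 FPKM without carbon and 1.26, 3.12 and 2.31 FPKM on D-fructose (log2 10.13 ± 0.43), Triha1_505895 (9.996 ± 0.34), Triha1_101028 (9.66 ± 0.33) and Triha1_527768 (9.59 ± 0.34). These genes were nearly silent in every D-fructose culture and among the abundant transcripts in every culture without carbon.

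The reverse pattern was shown by Triha1_86327, which had 16.9, 26.9 and 17.6 FPKM without carbon and 29592, 20516 and 37990 FPKM on D-fructose (log2 -10.88 ± 0.50), and by Triha1_4170, which had 15.9, 18.3 and 11.4 FPKM without carbon and 22040, 12090 and 21887 FPKM on D-fructose (log2 -10.66 ± 0.50). Both were also abundant on cellulose, at 19142 ± 3257 and 17265 ± 2555 FPKM (SD, n = 3). Triha1_270898 had 0 reads in the cultures without carbon and 928, 900 and 240 reads on D-fructose, so that it was at least 753-fold lower if 3 reads are taken as the limit for the whole group. Triha1_551513, with 0 reads without carbon and 541 reads on D-fructose, was at least 197-fold lower by the same limit. Triha1_512744 had 1 read without carbon and 5064 reads on D-fructose, a ratio of 5533 in favour of D-fructose (95% exact interval 993 to 218584). Its fitted log2 fold change was -12.28, and -13.89 without replicate 3 of the cultures without carbon.

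The other abundant genes with lower expression differed in how firmly they fell. Triha1_511404 had 3544, 3663 and 3916 FPKM without carbon and 12448, 11668 and 12278 FPKM on D-fructose, a separation far larger than the spread of replicates (log2 -2.10 ± 0.24). Triha1_1540 had 9598, 9654 and 10077 FPKM without carbon and 12070, 13685 and 33072 FPKM on D-fructose, and Triha1_94876 had 4619, 4224 and 5079 FPKM without carbon and 3972, 7702 and 25716 FPKM on D-fructose. Both were highest in D-fructose replicate 3, and without it their log2 fold changes were -0.78 and -0.69 with no call, against -1.39 and -1.81 with it. They were also not called without any one of the cultures without carbon, nor Triha1_94876 without D-fructose replicate 2 (adjusted p = 0.0574). With the replicate block both lost their calls as well (-1.225 and -1.37).

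Some changed genes were neighbours. In the order of the reference annotation, 7 runs of at least 5 consecutive genes held only higher genes. They covered 38 of the 1595 higher genes with a position. Another 14 runs held only lower genes, 78 of the 1743 lower genes with a position. A fall of the start position was taken as the end of a scaffold, a separate piece of the assembly. Whether such runs were more frequent than the share of called genes alone would give was not tested. The longest run of lower genes had 8 members over 36025 bases (Triha1_88948 to Triha1_509408), with log2 fold changes between -10.10 and -1.71. The abundant gene Triha1_55634 lay in a run of 6 higher genes (Triha1_508123 to Triha1_508129), with log2 fold changes between 1.39 and 9.40. Called genes were of ordinary size, with a median span of 1408 bases for higher and 1387 bases for lower genes, against 1490 bases for all tested genes with a position.

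The same pair of conditions in the Δ*xyr1-2* mutant, which shares no library with the wild type, gave 4411 DE genes of 11312 tested (39.0%), of which 2118 (18.7%) were higher and 2293 (20.3%) were lower without carbon. Of the 1648 higher genes of the wild type, 1327 were also called higher in the mutant, which is 80.5% of the wild-type list and 62.7% of the mutant list. For lower genes 1419 were shared, 79.9% of the wild-type list and 61.9% of the mutant list. There were 0 genes called in opposite directions.

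No gene had a response called as different between the strains (0 of 11826 by edgeR, with 973 at an unadjusted p under 0.05). DESeq2 called 54 genes, 50 of them with a lower and 4 with a higher log2 fold change in the mutant, and edgeR called 15 when D-fructose replicate 2 of the mutant was left out. In the mutant 18 of the 28 tested genes of the glycolysis list were lower, where 20.3% of all genes tested in the mutant were. In the wild type 8 of 29 were lower, where 15.5% of all tested genes were. The list median was -1.25 in the mutant and -0.69 in the wild type. No member differed between the strains after adjustment (smallest edgeR adjusted p = 0.389). At an unadjusted p under 0.05 by edgeR, 7 of 29 members differed, against 973 of 11826 genes. Whether the list as a whole differed between the strains was not tested.

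The genes with the clearest changes can be set side by side. The log2 fold change of *pdcA* was -7.50 ± 0.61 in the mutant, and mean FPKM were 35.5 ± 19.0 without carbon and 3817 ± 754 on D-fructose (SD, n = 3). The hydrophobin gene Triha1_3176 had a log2 fold change of 5.08 ± 0.44 in the mutant and *cre1* had -1.99 ± 0.40. The transporter Triha1_99293 rose in the wild type (log2 2.15 ± 0.49; 66.0, 48.7 and 61.0 FPKM without carbon, 4.58, 7.17 and 18.6 FPKM on D-fructose) and was near 0 in the mutant at 1.58 ± 0.320 FPKM without carbon and 0.797 ± 0.513 FPKM on D-fructose (log2 0.35 ± 0.49), a difference that was not called. It was named after its values were seen, and its wild-type call was lost without D-fructose replicate 2 (adjusted p = 0.0539). Its wild-type D-fructose value was highest in replicate 3, so its fold change depends on that library too.

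**Figure D5:**
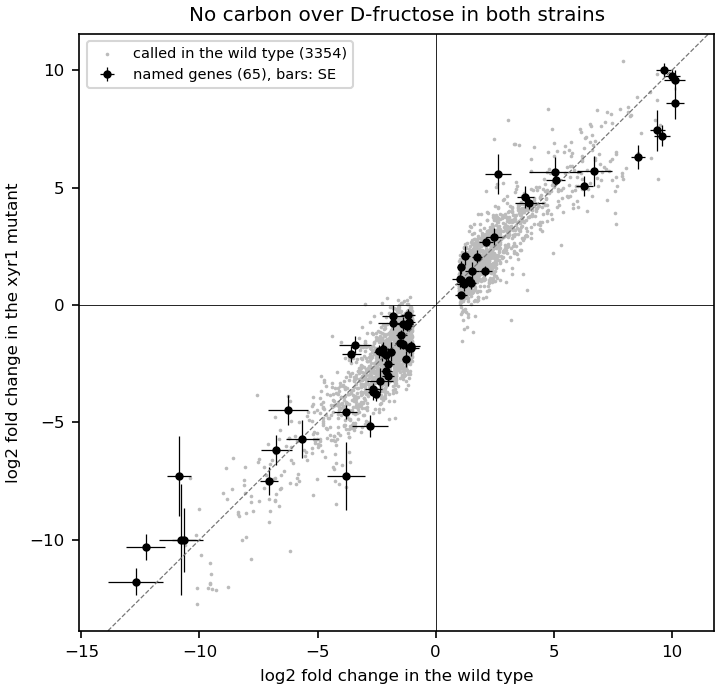
Log2 fold change (no carbon over D-fructose) in the Δ*xyr1-2* mutant against that in the wild type, for the 3354 genes called in the wild type and tested in both strains (grey) and 65 named genes (black, with SE). The sign was the same for 1596 of 1612 higher and 1731 of 1742 lower genes, and no gene was called in opposite directions.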

How the data were processed

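The authors sequenced poly-A libraries as paired-end reads, aligned them with STAR 2.5.2b to the Triha v1.0 assembly and used HTSeq 0.5.4 for reads per gene, per the paper and the submitters' processing notes. The deposited counts are raw and the deposited FPKM were scaled by the authors for gene length and library size. Whether counting used strand is not given in the sources used here, so overlapping antisense genes cannot be told apart. Genes were tested with edgeR 4.0.16 (quasi-likelihood, R 4.3.3) on 6 libraries, with TMM, filterByExpr and Benjamini-Hochberg adjustment; the strain difference was an interaction on 12 libraries without the FPKM criterion. SE came from the F statistic. The study's methods tie each set of replicate flasks to 1 spore plate and its pre-cultures, so equal replicate numbers may share a source, although the deviations of same-numbered cultures correlated at only -0.05, 0.10 and 0.002. The fit had no block, and values with the replicate block stand beside the results whose call it changed. The fit was tried on simulated data of 11453 genes, of which 200 were changed 4-fold, equally up and down. There edgeR recovered 87% of the changed genes and called 13 others. With so few and balanced changes, the simulation could not test the scaling of the real libraries. Tables were made with Python 3.11.15. Genes were named by role in carbon catabolism, and by size or level of change among called genes. Members and lists were chosen with earlier results of these data known. Lists came from annotation for 818 genes, with 58 PBD CAZymes. Lists by product name, including spore markers, could not be filled, and lists by Pfam and GO codes replaced them after the data were seen. Promoter motifs were not run. Alternatives were DESeq2 1.42.0, RLE size factors, library size only, no count filter, all 18 libraries, a replicate block, an adjusted p under 0.01, no FPKM criterion and leaving out each library.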

Additional observations from a re-analysis of the deposited data

How the results depend on the processing

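Scaling by library size only raised the number of higher genes to 2795 in the wild type and to 4286 in the mutant, against 1648 and 2118 under TMM, and gave 1185 lower genes in the mutant, against 2293. The strain difference, 0 genes by edgeR, was 54 by DESeq2 (4 higher and 50 lower in the mutant) and between 0 and 15 with a library left out (0 to 1 higher, 0 to 14 lower). The cause was not tested. No other alternative moved the DE counts of the 3 comparisons by more than 1.5 times, and leaving out a library gave 2961 to 3991 DE genes in the wild type and 3844 to 4793 in the mutant. With the replicate block 3362 wild-type genes were called, 4296 in the mutant and 0 for the strain difference. Among the genes named by rule, the block ended 4 calls, those of Triha1_1540, Triha1_94876, Triha1_502519 and Triha1_71098, and made none. Of the 68 called genes named by rule, 51 kept their call under all alternatives that left no library out and 54 in all fits without a library, and none reversed. Counting error and 3 cultures per group limit genes of low level.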
